A study of Homo sapiens with 12 samples.

Results

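The genes described here are 33 that serve protein folding in the endoplasmic reticulum (ER) or the unfolded protein response, among 38019 in a table of RNA sequencing (RNA-seq) read counts. They were chosen by symbol, from the known role of each product, and fall into 6 sensors and transcription factors, 12 chaperones and partners of the chaperone HSPA5, 8 disulfide enzymes and 7 degradation factors. All 33 were found in the table and all 33 passed the filter on low counts, which left 15135 genes tested. The libraries come from HEK293T cells, a human embryonic kidney line, collected 24 h after transient transfection with FuGENE. There were 4 groups of 3 libraries, and the labels call the 3 of a group independent experiments. Control cells received the empty vector. The others received FLAG-NRF1, FLAG-NRF2 or FLAG-NRF3, and are called NRF1, NRF2 and NRF3 below. The NRF1 and NRF3 transgenes were codon-optimized and truncated, without the N-terminal sequence that directs the native proteins to the ER, and the NRF2 transgene carried the change T80D, at a site where the repressor KEAP1 binds, which keeps KEAP1 from directing the protein to degradation. Overexpression from a plasmid, in a population where transfected and untransfected cells were sequenced together, limits these groups as models of the native factors. The study compared them to find which transcripts the NRF factors share and which they do not, and each transgene is therefore compared here with empty vector and with the other transgenes.

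The ER folds secreted and membrane proteins with chaperones led by HSPA5 (BiP), with lectin chaperones that read glycans, and with enzymes that form and rearrange disulfide bonds. When unfolded proteins accumulate, the membrane sensors ATF6, ERN1 (IRE1) and EIF2AK3 (PERK) signal to the nucleus. ATF6 is cut to release a transcription factor, ERN1 splices the mRNA of XBP1 so that an active factor is made, and EIF2AK3 slows translation. The released factors bind short promoter sequences called ER stress elements, and the genes behind them encode chaperones, disulfide enzymes and the factors that take misfolded proteins out of the ER for degradation. NRF1, NRF2 and NRF3 are cap'n'collar factors that bind another sequence, the antioxidant response element.

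ER stress elements were found upstream of 11 of the 33 genes, and each is shown. The genes were chosen from roles that include the targets of these elements, so the presence of elements among them is not independent of that choice. Sequences are from RefSeq (GRCh38.p14), printed 5′ to 3′ in the direction of the gene. Each is the matched element, in capitals, with up to 12 bases on either side. The first form of the element is CCAAT and CCACG with 9 bases of any kind between them, the second, element II, is ATTGG and CCACG with 1 base between them, and each was searched on both strands in windows from 250 bases before to 50 bases after an annotated start. An element on the other strand is printed here as its reverse complement, so that it begins with CGTGG.
XBP1 chr22:28800591-28800633 (minus strand): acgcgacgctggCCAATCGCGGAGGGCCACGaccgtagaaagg
HSPA5 chr9:125241379-125241421 (minus strand): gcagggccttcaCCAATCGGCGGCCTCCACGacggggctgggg
HSP90B1 chr12:103930204-103930246 (plus strand): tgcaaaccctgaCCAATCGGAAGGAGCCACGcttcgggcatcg
HSP90B1 chr12:103930309-103930351 (plus strand): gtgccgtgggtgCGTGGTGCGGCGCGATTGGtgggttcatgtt
HYOU1 chr11:119057368-119057402 (minus strand): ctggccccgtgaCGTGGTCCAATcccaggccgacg
HYOU1 chr11:119057262-119057296 (minus strand): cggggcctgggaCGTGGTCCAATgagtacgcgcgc
CALR chr19:12938372-12938414 (plus strand): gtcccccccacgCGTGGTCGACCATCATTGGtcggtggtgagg
CANX chr5:179698766-179698808 (plus strand): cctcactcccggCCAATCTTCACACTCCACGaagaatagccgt
CRELD2 chr22:49918542-49918584 (plus strand): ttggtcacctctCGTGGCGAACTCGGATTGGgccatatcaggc
SDF2L1 chr22:21642102-21642136 (plus strand): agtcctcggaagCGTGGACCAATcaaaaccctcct
PDIA6 chr2:10812841-10812883 (minus strand): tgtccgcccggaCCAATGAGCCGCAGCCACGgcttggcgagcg
ERO1B chr1:236282171-236282208 (minus strand): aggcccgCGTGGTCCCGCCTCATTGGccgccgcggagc
HERPUD1 chr16:56932013-56932047 (plus strand): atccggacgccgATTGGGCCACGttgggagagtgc

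The elements begin between 52 and 243 bases before the start they were found from. HSP90B1 and HYOU1 each have a pair, and the others have one each. CANX has 3 annotated starts whose windows hold the same element, and its distance is given from the middle one. The first form was present at XBP1, HSPA5, HSP90B1, CALR, CANX, CRELD2, PDIA6 and ERO1B, which is 8 of the 30 members that had a window (26.7%). Over all genes with a window it was present in 25 of 27305 (0.0916%). Element II was present at HYOU1, SDF2L1 and HERPUD1, 3 of 30 members (10%) against 19 of 27305 genes (0.0696%). The shorter core of XBP1 and ATF6 sites, TGACGTG, was present at HYOU1 and DNAJC10 (6.67% of members, 2.4% of all genes). At HYOU1 it shares 4 bases with the upstream element II. The antioxidant response core TGACNNNGC was present at 6 members (ERN1, CALR, CANX, CRELD2, SDF2L1 and DNAJC10), 20% against 16.1% of all genes, and at DNAJC10 it covers the 7 bases of the TGACGTG match. PDIA3, DERL1 and DERL3 had no window. A match is a description of the letters in the window and was not tested as a site of binding.

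Total counts per library lay between 13452683 and 14014476, so depth differed little between libraries. The spread between replicates differed more. The median SD per gene on the log2 scale was 0.0884 for empty vector, 0.105 for NRF1, 0.122 for NRF2 and 0.187 for NRF3 over all genes tested, and 0.0659, 0.0751, 0.0533 and 0.106 over the 33 genes. NFE2L2, the gene of NRF2, was at 88.7 to 97.1 CPM (read counts scaled to a common library size) with empty vector and at 9319 to 11421 CPM with NRF2. NFE2L1 and NFE2L3 were within or close to their empty vector ranges in the NRF1 and NRF3 libraries. Those transgenes were codon-optimized, and the RNA doses of the 3 transgenes were not compared here. The study reports that the tagged proteins were at similar levels on anti-FLAG Western blots. HMOX1, an antioxidant response gene, was at 57.7 to 65.3 CPM in empty vector libraries and at 474 to 616 in those of NRF1, 1355 to 1465 in those of NRF2 and 302 to 378 in those of NRF3. Of 5 genes that mark this line, VIM, NEFL, NEFM and LIN28B were at 12.9 CPM or more in every library and PAX2 at 1.01 to 2.21. Of 12 markers of blood, endothelium, liver and skeletal muscle, ACTA1 was at 15.9 to 23.4 CPM and the other 11 had at most 18 counts in any library.

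Genes of the ER folding machinery were higher in cells overexpressing NRF2 than in empty vector controls. Of the 33 genes, 18 were called higher and 0 lower in the quasi-likelihood test of edgeR, at a Benjamini-Hochberg adjusted p under 0.05 over all genes tested. Over all genes tested, 4.68% were called higher and 5.81% lower. At an unadjusted p under 0.05 the members' counts were 22 higher and 1 lower, against 1773 higher and 1937 lower of the 15135 genes tested. DESeq2 called 19 members higher and 0 lower, against 675 and 821 of all genes. The called genes were 11 of 12 chaperones and HSPA5 partners, 5 of 8 disulfide enzymes, 1 of 6 sensors and transcription factors (XBP1) and 1 of 7 degradation factors (HERPUD1). The changes were small in size, with called log2 fold changes between 0.21 and 0.58. The median log2 fold change was 0.30 over the 33 genes and 0.00 over all genes tested. By role it was 0.37 for chaperones, 0.24 for disulfide enzymes, 0.28 for sensors and transcription factors and 0.11 for degradation factors. Whether the roles differ was not tested. In bulk RNA, more cells that express a gene and more of its RNA in each cell cannot be told apart.

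The 33 genes together took 0.698 to 0.717% of all counts in the empty vector libraries, 0.754 to 0.797% with NRF1, 0.894 to 0.909% with NRF2 and 0.723 to 0.806% with NRF3. The 3 NRF2 libraries held the highest shares of the 12, and the NRF1 and NRF3 ranges overlapped. For 22 genes all 3 NRF2 libraries lay above all 3 empty vector libraries, and for ATF6B all 3 lay below. Over all genes tested, 17.8% lay above without overlap and 17.6% below. For 11 genes the 3 NRF2 libraries lay above all 9 other libraries (XBP1, HSPA5, HSP90B1, CANX, MANF, SDF2L1, DNAJB11, PDIA3, PDIA4, PDIA6 and P4HB), against 4.04% of all genes tested. Of the 33, 29 had their highest group mean with NRF2, and the share of all genes tested with that order was not computed. The heat map by library shows the NRF2 columns as the darkest block of red, across the rows of chaperones and disulfide enzymes.

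**Figure D1:**
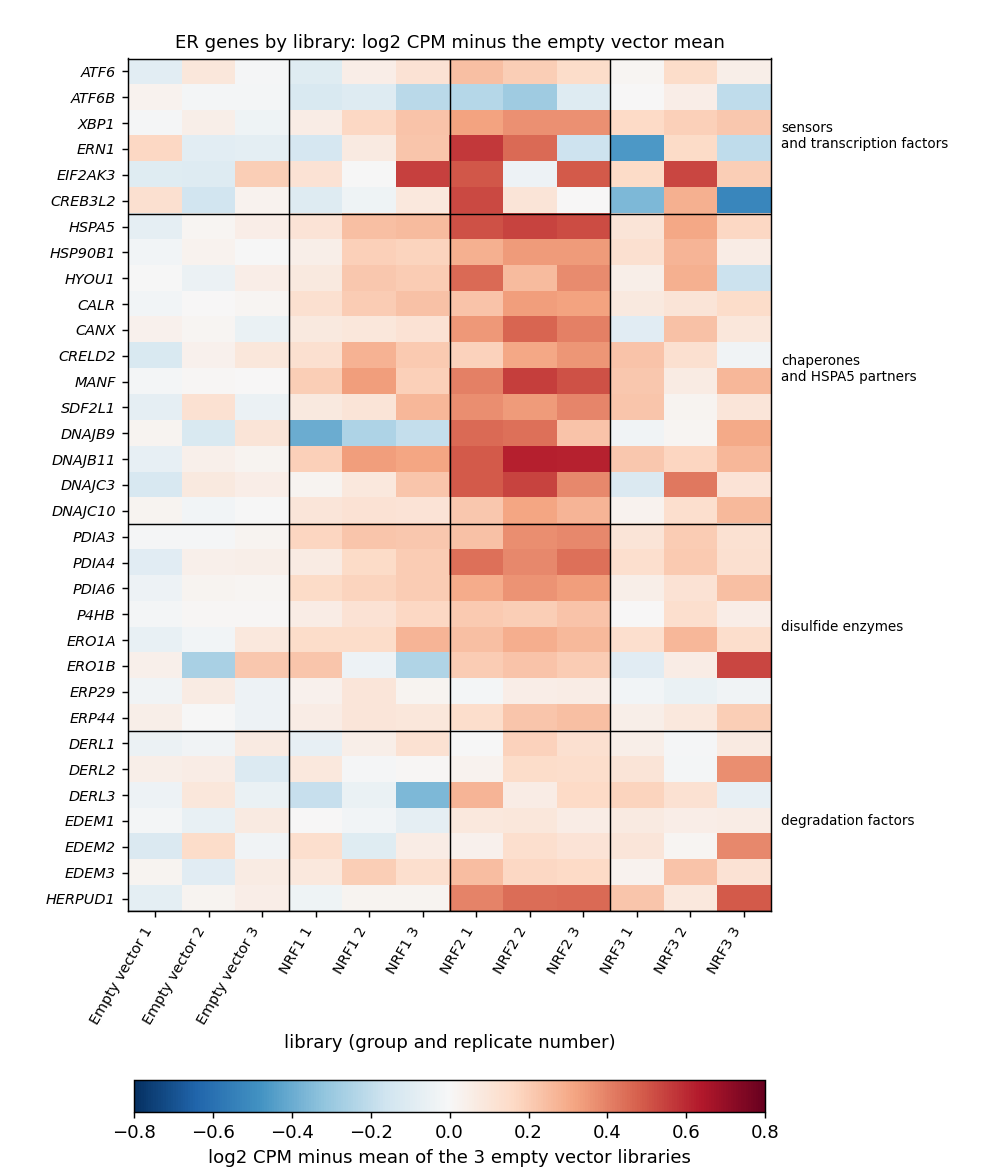
Each row is 1 of the 33 genes and each column 1 of the 12 libraries, and colour is log2 CPM minus the mean of the 3 empty vector libraries for that gene. The 3 NRF2 columns are red across nearly all chaperones and disulfide enzymes, while most degradation factors are pale in every group.

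Among the chaperones, DNAJB11 (ERdj3), a co-chaperone that hands unfolded proteins to HSPA5, had the largest log2 fold change with NRF2. DNAJB11 was at 129, 139 and 137 CPM in the 3 empty vector libraries, in the NRF1 libraries at 154, 169.7 and 168, in the NRF2 libraries at 189, 207 and 206 and in the NRF3 libraries at 156, 152 and 162. All 3 NRF2 libraries were above every other library, and the NRF1 and NRF3 libraries were all above those of empty vector. The log2 fold change with NRF2 was 0.58 (SE 0.07, adjusted p = 3.44e-05). HSPA5 itself, the central Hsp70 chaperone of the ER, followed. Its level was 686, 730.1 and 749 CPM in the empty vector libraries, 778, 853 and 859.5 in those of NRF1, 1026, 1047 and 1037 in those of NRF2 and 774, 895 and 811 in those of NRF3. Again no NRF2 library overlapped any other group, and the NRF2 libraries differed from each other by less than those of any other group. The log2 fold change was 0.52 (SE 0.07, adjusted p = 0.000168), a 1.44-fold difference with a 95% interval of 0.37 to 0.67 on the log2 scale.

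MANF, a secreted ER protein that binds HSPA5, rose in the same comparison. By library, MANF was at 122, 124 and 124 CPM in the empty vector libraries, 141, 155 and 141 in those of NRF1, 164, 181 and 175 in those of NRF2 and 144, 129.5 and 148 in those of NRF3. The NRF1 and NRF3 values lay between those of empty vector and NRF2 without touching either. Its log2 fold change with NRF2 was 0.49 (SE 0.07, adjusted p = 0.000298). CANX, the membrane-bound lectin chaperone calnexin, had a wider spread with NRF3. CANX was at 879.5, 870.1 and 829 CPM in the 3 empty vector libraries, in the NRF1 libraries at 906, 914 and 930.5, in the NRF2 libraries at 1094, 1187 and 1135 and in the NRF3 libraries at 806, 1011 and 917. The NRF2 libraries were again the 3 highest of the 12, and 1 NRF3 library was the lowest of the 12. The log2 fold change with NRF2 was 0.41 (SE 0.08, adjusted p = 0.00296).

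The other 7 called chaperones had log2 fold changes with NRF2 of 0.27 to 0.47. They were DNAJC3, a co-chaperone of HSPA5 (0.47, SE 0.12, adjusted p = 0.0201), SDF2L1, a partner of DNAJB11 (0.37, SE 0.08, adjusted p = 0.00737), and HYOU1, which exchanges the nucleotide of HSPA5 (0.36, SE 0.09, adjusted p = 0.0210). On the log2 scale HSP90B1, the Hsp90 of the ER, rose by 0.32 (SE 0.07, adjusted p = 0.00728) and CALR, the soluble lectin chaperone calreticulin, by 0.30 (SE 0.06, adjusted p = 0.00638). CRELD2, an ER protein induced by stress, rose by 0.28 (SE 0.08, adjusted p = 0.0413) and DNAJC10, a co-chaperone that also reduces disulfides, by 0.27 (SE 0.07, adjusted p = 0.0156). By range, HSP90B1 was at 931 to 962 CPM with empty vector and 1150.4 to 1199 with NRF2, CALR at 886 to 911 CPM with empty vector and 1053 to 1135 with NRF2 and HYOU1 at 358 to 384 CPM with empty vector and 441 to 507 with NRF2. SDF2L1 was at 59.4 to 67.9 CPM with empty vector and 79.2 to 81.8 with NRF2, CRELD2 at 60.3 to 69.9 CPM with empty vector and 74.6 to 83.8 with NRF2, DNAJC3 at 15.1 to 17.4 CPM with empty vector and 21.5 to 24.0 with NRF2 and DNAJC10 at 214 to 219.9 CPM with empty vector and 252 to 269.7 with NRF2. None of these 7 ranges with NRF2 overlapped that with empty vector. DNAJB9 (ERdj4), which brings HSPA5 to ERN1, was the one chaperone not called, at 0.38 (SE 0.12, adjusted p = 0.0519). Its level was 11.1, 10.0 and 11.8 CPM in the empty vector libraries, 8.26, 9.22 and 9.59 in those of NRF1, 15.1, 14.9 and 12.9 in those of NRF2 and 10.7, 11.1 and 13.5 in those of NRF3. With NRF2 all 3 libraries were above the empty vector range, and with NRF1 all 3 were below it.

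Of the 8 disulfide enzymes, 5 rose with NRF2. PDIA4 (ERp72), a protein disulfide isomerase, had the largest log2 fold change of them. By library, PDIA4 was at 383, 419 and 420.4 CPM in the empty vector libraries, 426, 454 and 468 in those of NRF1, 553, 532 and 553 in those of NRF2 and 448, 470.1 and 445 in those of NRF3. The 3 NRF2 libraries were the 3 highest, and those of the other transgenes were all above empty vector. Its log2 fold change with NRF2 was 0.42 (SE 0.06, adjusted p = 0.000507). PDIA3 (ERp57) works with CALR and CANX on glycoproteins. PDIA3 was at 311, 311 and 318 CPM in the 3 empty vector libraries, in the NRF1 libraries at 353, 365 and 364, in the NRF2 libraries at 369, 405 and 409 and in the NRF3 libraries at 337, 361 and 341. The order of the group means was the same as for DNAJB11, with NRF2 highest and NRF1 above NRF3, and the log2 fold change with NRF2 was 0.33 (SE 0.06, adjusted p = 0.00289).

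PDIA6, an isomerase that binds HSPA5, showed the same separation. Its level was 368, 384 and 383 CPM in the empty vector libraries, 422, 428 and 436 in those of NRF1, 466, 486 and 476 in those of NRF2 and 391, 411 and 448 in those of NRF3. No NRF2 library overlapped another group, and the log2 fold change was 0.33 (SE 0.06, adjusted p = 0.00358). ERO1A, the oxidase that restores the disulfide of the isomerases, had a smaller fold change. By library, ERO1A was at 49.2, 50.4 and 54.3 CPM in the empty vector libraries, 56.7, 56.7 and 61.8 in those of NRF1, 60.7, 62.6 and 61.3 in those of NRF2 and 56.3, 61.7 and 56.6 in those of NRF3. The NRF2 libraries were above empty vector but overlapped those of NRF1 and NRF3, and the log2 fold change with NRF2 was 0.26 (SE 0.07, adjusted p = 0.0283). P4HB, the first-described protein disulfide isomerase, was at 472 to 481 CPM with empty vector and 546 to 559 with NRF2, and rose by 0.21 (SE 0.06, adjusted p = 0.0358) on the log2 scale. The 3 disulfide enzymes that were not called were ERP44, which holds ERO1A in the ER (0.20, SE 0.06, adjusted p = 0.0572), ERO1B, the second oxidase (0.20, SE 0.16, adjusted p = 0.477), and ERP29, a relative of the isomerases without their active cysteine pair (0.03, SE 0.06, adjusted p = 0.808). For ERP29 the 95% interval of the log2 fold change was -0.10 to 0.16.

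The sensors and transcription factors gave 1 call with NRF2. XBP1, the transcription factor made after splicing by ERN1, rose. XBP1 was at 166, 173 and 164 CPM in the 3 empty vector libraries, in the NRF1 libraries at 175, 188 and 197, in the NRF2 libraries at 210.0, 216 and 216 and in the NRF3 libraries at 187, 191 and 195. All 3 NRF2 libraries were above the other 9, and the log2 fold change was 0.35 (SE 0.06, adjusted p = 0.00168). The table counts reads per gene, so spliced and unspliced XBP1 mRNA are counted together. ATF6, the sensor that is cut to a transcription factor, was not called. Its level was 98.3, 111 and 103 CPM in the empty vector libraries, 97.1, 108 and 113 in those of NRF1, 123, 119 and 115 in those of NRF2 and 105, 115 and 108 in those of NRF3. Its NRF2 libraries were all above those of empty vector and overlapped those of NRF3, and its log2 fold change was 0.19 (SE 0.07, adjusted p = 0.107).

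ATF6B, the paralog of ATF6, was the one member with a negative log2 fold change with NRF2. By library, ATF6B was at 94.2, 91.6 and 91.7 CPM in the empty vector libraries, 84.96, 86.3 and 79.6 in those of NRF1, 79.0, 75.9 and 86.2 in those of NRF2 and 92.8, 95.8 and 80.4 in those of NRF3. The NRF1 and NRF2 libraries were all below those of empty vector, and the NRF3 libraries overlapped them. The log2 fold change with NRF2 was -0.20 (SE 0.08, adjusted p = 0.109) and it was not called. It was called lower when only the empty vector and NRF2 libraries were fitted, without the 3 NRF3 libraries, and without NRF3 replicate 3 (log2 fold change -0.20, adjusted p = 0.0384). All genes called lower rose from 879 of 15135 to 1443 of 14714, 1480 of 14945 and 1150 of 15337 in these settings in turn.

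EIF2AK3, the sensor that slows translation, had 10 values that were not whole numbers, so some of its reads may be shared with other genes. EIF2AK3 was at 19.9, 19.8 and 24.4 CPM in the 3 empty vector libraries, in the NRF1 libraries at 23.1, 21.3 and 31.1, in the NRF2 libraries at 30.1, 20.7 and 30.0 and in the NRF3 libraries at 23.7, 30.8 and 24.4. The groups overlapped, and the log2 fold change with NRF2 was 0.33 (SE 0.17, adjusted p = 0.237). ERN1, the sensor that splices XBP1, had low levels of 2.57 to 5.39 CPM over the 12 libraries and a log2 fold change of 0.33 (SE 0.21, adjusted p = 0.354). CREB3L2, a membrane-bound transcription factor of the secretory pathway, was at 13.5 to 28.1 CPM with a log2 fold change of 0.23 (SE 0.18, adjusted p = 0.474). These 3 genes had standard errors of 0.17 or more, against 0.06 to 0.08 for ATF6, ATF6B and XBP1, and their 95% intervals all reached from below 0 to above 0.60.

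Of the degradation factors, HERPUD1 was called with NRF2. Its product, HERP, helps assemble the complex that moves misfolded proteins out of the ER. Its level was 56.7, 60.8 and 61.9 CPM in the empty vector libraries, 58.4, 60.6 and 60.6 in those of NRF1, 78.8, 81.5 and 82.0 in those of NRF2 and 69.8, 63.5 and 84.1 in those of NRF3. The NRF2 libraries were all above those of empty vector and NRF1, while NRF3 replicate 3 was the highest of the 12. The log2 fold change with NRF2 was 0.43 (SE 0.09, adjusted p = 0.00494). EDEM3, one of the mannosidase-like proteins that mark glycoproteins for degradation, came next. By library, EDEM3 was at 97.4, 89.9 and 101 CPM in the empty vector libraries, 102, 109.9 and 105 in those of NRF1, 114, 108 and 107 in those of NRF2 and 97.7, 113 and 104 in those of NRF3. Its NRF2 libraries were above those of empty vector, and the log2 fold change was 0.19 (SE 0.07, adjusted p = 0.106), which did not pass the test.

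The derlins, membrane proteins that guide misfolded proteins out, were not called. DERL3 was at 11.0, 12.1 and 10.9 CPM in the 3 empty vector libraries, in the NRF1 libraries at 9.93, 10.9 and 8.79, in the NRF2 libraries at 13.7, 11.8 and 12.6 and in the NRF3 libraries at 12.9, 12.4 and 10.8. DERL3 was thus at low levels, with overlapping NRF2 and empty vector libraries and a log2 fold change of 0.17 (SE 0.11, adjusted p = 0.396). DERL1 was at 35.2, 35.7 and 38.3 CPM in the empty vector libraries, 34.7, 37.6 and 39.5 in those of NRF1, 36.2, 41.2 and 39.8 in those of NRF2 and 37.6, 36.1 and 38.3 in those of NRF3. The DERL1 groups also overlapped, at 0.10 (SE 0.08, adjusted p = 0.464), and 8 of its values were not whole numbers, so reads may be shared there as well. DERL2 had a log2 fold change of 0.11 (SE 0.09, adjusted p = 0.509). The other mannosidase-like proteins, EDEM1 and EDEM2, had values of 0.08 (SE 0.06, adjusted p = 0.497) and 0.09 (SE 0.10, adjusted p = 0.652). For EDEM1 the 95% interval was -0.06 to 0.21, which leaves out the values of HERPUD1, HSPA5 and DNAJB11.

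**Figure D2:**
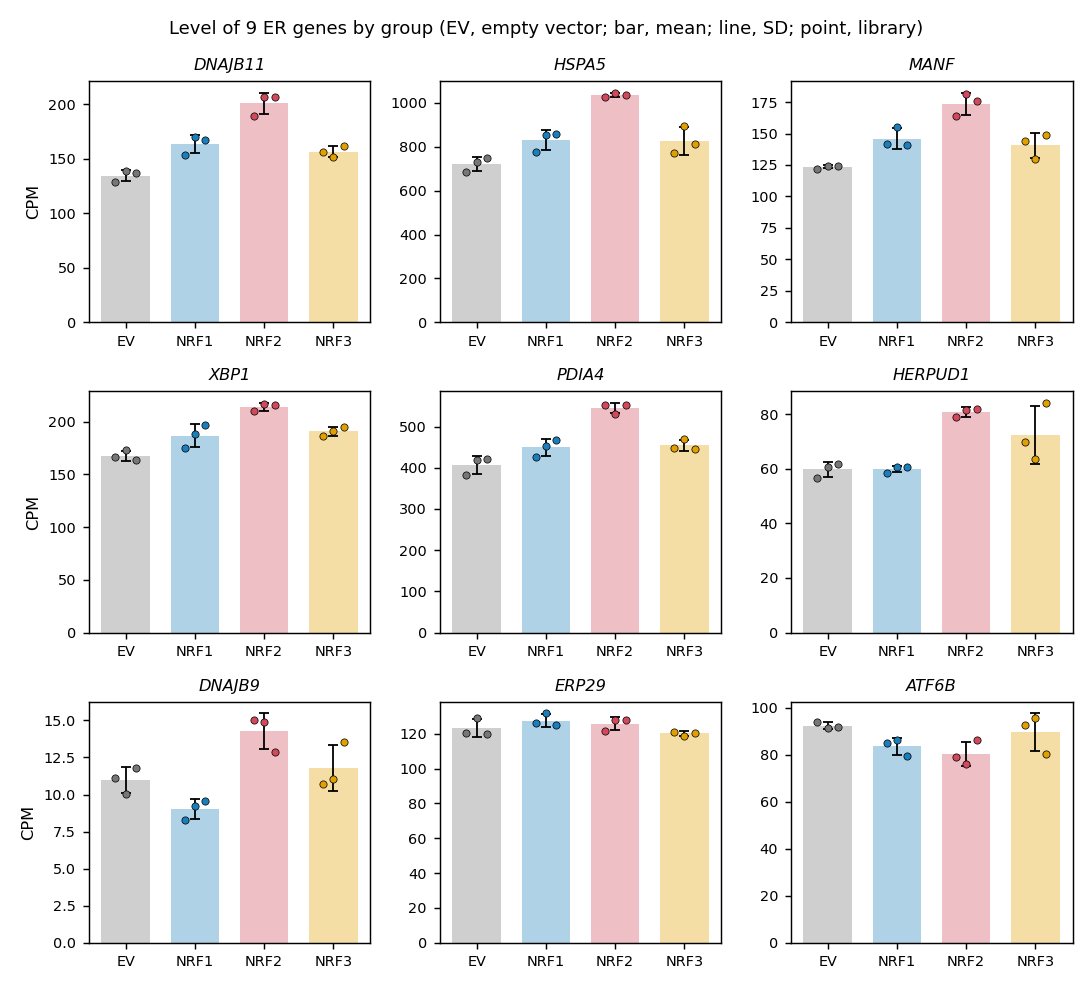
Level in CPM (axes start at 0) of 9 of the genes in each group, with bars at the mean of 3 libraries, lines at 1 SD and a point for each library (EV, empty vector). For DNAJB11, HSPA5, MANF, XBP1 and PDIA4 the 3 NRF2 points lie above all others. For HERPUD1 the NRF1 bar is level with empty vector, for DNAJB9 it is below, and for ERP29 all 4 bars are close.

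Of the 18 calls with NRF2, 12 were kept without each single library. All genes called higher fell from 709 to 344, 334 and 341 without empty vector replicates 1, 2 and 3 in turn. The same count was 419, 418 and 401 without NRF2 replicates 1, 2 and 3 in turn, and 618, 584 and 637 without those of NRF1. CRELD2 lost its call without any one empty vector or NRF1 library or NRF2 replicate 2 or 3 (adjusted p at most 0.193), and P4HB without any one empty vector or NRF2 library or NRF1 replicate 1 or 2 (at most 0.132). DNAJC10 lost it without any one empty vector library or NRF2 replicate 2 or 3 (at most 0.0729), DNAJC3 without any one empty vector library or NRF2 replicate 1 or 2 (at most 0.102), and HYOU1 without any one empty vector library or NRF2 replicate 1 or 3 (at most 0.0945). ERO1A lost it without empty vector replicate 1 or 2 or any one NRF2 library (at most 0.129). DNAJB9 and ERP44 were called higher as well without NRF3 replicate 2 or 3, where all genes called higher rose from 709 to 1057 and 1001. With only the empty vector and NRF2 libraries in the fit, and with all but the NRF3 libraries, 22 members were called higher, which added ATF6, DNAJB9, ERP44 and EDEM3, and the genes called higher were 1276 of 14714 and 1291 of 14945. The unequal variance test named in the study's methods, run on log2 CPM with Benjamini-Hochberg adjustment, called 1 of the 33 (P4HB), and over all 15135 genes it called 50 higher and 32 lower.

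With NRF1, 1 of the ER genes rose over empty vector. Of the 33, 1 was called higher, DNAJB11, and 0 lower, and over all genes tested 0.238% were called higher and 1.51% lower. At an unadjusted p under 0.05 the counts were 10 higher and 1 lower (DNAJB9), against 1128 and 1498 of the 15135 genes tested. The log2 fold change of DNAJB11 was 0.28 (SE 0.07, adjusted p = 0.0415) in the same edgeR test, Benjamini-Hochberg adjusted. The next smallest adjusted p values belonged to MANF (log2 fold change 0.24, SE 0.07, adjusted p = 0.10), PDIA3 (0.20, SE 0.06, adjusted p = 0.114) and CALR (0.19, SE 0.06, adjusted p = 0.133), and none of these passed the test. The median over the 33 genes was 0.11, against -0.01 over all genes tested, and 27 of the 33 values were positive, against 48.7% of all genes tested. By role the median was 0.16 for chaperones, 0.13 for disulfide enzymes, 0.04 for sensors and transcription factors and 0.03 for degradation factors.

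All 3 NRF1 libraries lay above all 3 empty vector libraries for 17 genes, against 15% of all genes tested, and below for 3 (ATF6B, DNAJB9 and DERL3), against 15.9%. The 17 included 9 of 12 chaperones and 6 of 8 disulfide enzymes, and 1 each of the sensors (XBP1) and degradation factors (EDEM3). DNAJB9 had a log2 fold change of -0.28 (SE 0.12, adjusted p = 0.257) and DERL3 one of -0.20 (SE 0.12, adjusted p = 0.398), and neither was called. HERPUD1, at 0.00 (SE 0.09, adjusted p = 0.996), had a mean close to that of empty vector (59.9 ± 1.25 CPM, SD, n = 3 libraries, against 59.8 ± 2.73), with a 95% interval of -0.19 to 0.19. The count of calls with NRF1 rested on the libraries in the fit. It was 0 without any one empty vector library, NRF1 replicate 2 or 3, NRF2 replicate 2 or 3 or NRF3 replicate 1. Without NRF3 replicate 2 or 3 it was 2 (MANF and DNAJB11), where all genes called higher rose from 36 to 160 and 163. All genes called higher fell to 7, 8 and 7 without empty vector replicates 1, 2 and 3 in turn, and to 7 without NRF1 replicate 2 or 3. Without NRF2 replicates 2 and 3 and NRF3 replicate 1 in turn, all genes called higher were 31, 25 and 34. With only the empty vector and NRF1 libraries fitted, the count of members called was 9, and the genes called higher were then 946 of 14649.

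With NRF3, 0 of the 33 genes were called in either direction, and over all genes tested 0.0198% were called higher and 0.00661% lower. At an unadjusted p under 0.05 the counts were 11 higher and 0 lower, against 259 and 363 of the 15135 genes tested. DESeq2 also called 0 of the 33, against 5 higher and 3 lower of all genes tested. The median log2 fold change was 0.13 over the 33 genes and 0.00 over all genes tested, with 29 of 33 values positive, against 50.8% of all genes tested. All 3 NRF3 libraries lay above all 3 of empty vector for 13 genes, against 3.95% of all genes tested, and below for 0, against 4.64%. HERPUD1 had a log2 fold change of 0.28 (SE 0.09, adjusted p = 0.994), DNAJB11 one of 0.22 (SE 0.07, adjusted p = 0.994) and XBP1 one of 0.19 (SE 0.06, adjusted p = 0.994), and all had unadjusted p-values under 0.01. EIF2AK3 had the largest estimate, 0.30 (SE 0.17, adjusted p = 0.994). The 3 NRF3 libraries varied most, and which of them was highest changed from gene to gene. HYOU1 was at 383, 451 and 329 CPM in NRF3 replicates 1 to 3, and HERPUD1 at 69.8, 63.5 and 84.1.

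The direct comparisons asked whether the NRF2 values differed from those of the other transgenes. NRF2 and NRF1 differed in 5 of the 33 genes in the same edgeR test, Benjamini-Hochberg adjusted, all higher with NRF2, against 1.04% of all genes tested called higher and 0.205% lower. The 5 were DNAJB9 (log2 fold change 0.66, SE 0.12, adjusted p = 0.00659), HERPUD1 (0.43, SE 0.09, adjusted p = 0.0155), HSPA5 (0.32, SE 0.07, adjusted p = 0.0299), DNAJB11 (0.30, SE 0.07, adjusted p = 0.0350) and PDIA4 (0.28, SE 0.06, adjusted p = 0.0412). DNAJB9 had the largest difference, 1.58-fold, and its NRF2 and NRF1 values stand on opposite sides of the empty vector level. At an unadjusted p under 0.05 the counts were 15 higher and 0 lower, against 955 and 660 of the 15135 genes tested, and the median of the 33 was 0.17, against 0.00 over all genes tested. For 20 genes the 3 NRF2 libraries lay above the 3 NRF1 libraries without overlap, against 10% of all genes tested. For ERO1A (0.08, SE 0.07, adjusted p = 0.777) and CRELD2 (0.08, SE 0.08, adjusted p = 0.818) the 95% intervals of the difference were -0.08 to 0.23 and -0.10 to 0.25.

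The count of these calls changed when single libraries were left out, also libraries of neither group compared. The cause was not tested. Over these fits the log2 fold change lay at 0.60 to 0.73 for DNAJB9 and 0.41 to 0.44 for HERPUD1. It lay at 0.28 to 0.35 for HSPA5, 0.25 to 0.33 for DNAJB11 and 0.24 to 0.31 for PDIA4. The count was 2 (DNAJB9 and HERPUD1) without any one of the empty vector libraries, 0 without NRF1 replicate 1, and 1 (DNAJB9) without NRF1 replicate 2 or 3 or NRF2 replicate 2 or 3. It was 3 (DNAJB9, DNAJB11 and HERPUD1) without NRF2 replicate 1. Without NRF3 replicate 1 it was 4 (HSPA5, CANX, DNAJB9 and HERPUD1), and without NRF3 replicate 2 or 3 it was 7 (CANX and MANF added), where all genes called higher rose from 158 to 263 and 247. All genes called higher were 148, 152 and 154 without empty vector replicates 1, 2 and 3 in turn, and 123, 117 and 121 without those of NRF1. The same count was 132, 121 and 128 without those of NRF2, and 162 without NRF3 replicate 1. Without NRF1 replicate 1 the log2 fold change of DNAJB9 was 0.60, adjusted p = 0.0540.

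NRF2 and NRF3 also differed in 5 of the 33 genes, all higher with NRF2, against 2.42% of all genes tested called higher and 2.75% lower. They were DNAJB11 (log2 fold change 0.36, SE 0.07, adjusted p = 0.00392), HSPA5 (0.33, SE 0.07, adjusted p = 0.0120), MANF (0.30, SE 0.07, adjusted p = 0.0183), CANX (0.32, SE 0.08, adjusted p = 0.0210) and PDIA4 (0.26, SE 0.06, adjusted p = 0.0241), again in the adjusted edgeR test. All but PDIA4 are chaperones or partners of HSPA5. At an unadjusted p under 0.05 the counts were 17 higher and 0 lower, against 1515 and 1594 of the 15135 genes tested. HERPUD1, called against NRF1, was not called against NRF3 (0.16, SE 0.09, adjusted p = 0.331). The count was 4 (all but PDIA4) without NRF2 replicate 1, 1 (DNAJB11) without NRF2 replicate 2 or NRF3 replicate 1, 2 (HSPA5 and DNAJB11) without NRF2 replicate 3, 13 without NRF3 replicate 2, where all genes called higher rose from 366 to 1588, and 7 (PDIA6 and HERPUD1 added) without NRF3 replicate 3. All genes called higher were 208, 246 and 228 without NRF2 replicates 1, 2 and 3 in turn, and 191 and 320 without NRF3 replicates 1 and 3. With only the NRF2 and NRF3 libraries fitted, the count of members was 0, against 141 of 14645 genes called higher. The spread of that fit rests on those 6 libraries alone.

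Between NRF1 and NRF3, 0 of the 33 genes were called higher and 0 lower, against 0.0463% and 0.35% of all genes tested. DESeq2 also called 0 of the 33, against 17 higher and 113 lower of all genes tested. At an unadjusted p under 0.05 there were 0 higher and 3 lower with NRF1, against 743 and 1032 of the 15135 genes tested. The 3 were DNAJB9 (-0.38, SE 0.12, adjusted p = 0.265), HERPUD1 (-0.28, SE 0.09, adjusted p = 0.257) and DERL3 (-0.28, SE 0.12, adjusted p = 0.369). HERPUD1 was called lower with NRF1 without NRF3 replicate 2, where all genes called lower rose from 53 to 641. For HSPA5 the difference between NRF1 and NRF3 was 0.01, with a 95% interval of -0.14 to 0.16, and for PDIA4 it was -0.02, with an interval of -0.15 to 0.12. The plot of fold changes by gene shows the NRF1 and NRF3 points close together for most chaperones and apart for DNAJB9, DERL3 and HERPUD1. The comparisons with empty vector share its 3 libraries, and the direct comparisons share those of each transgene.

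**Figure D3:**
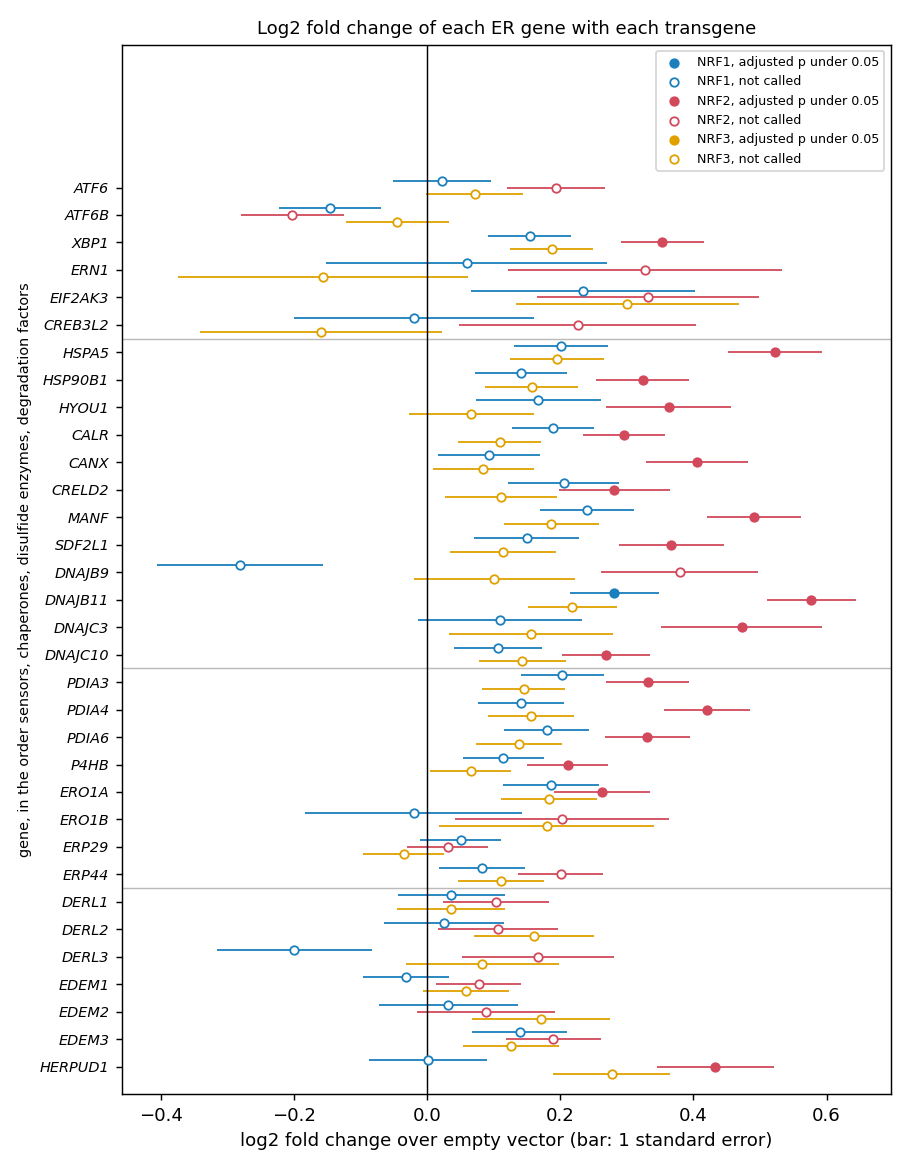
Log2 fold change over empty vector of each of the 33 genes with NRF1 (blue), NRF2 (red) and NRF3 (yellow), with bars of 1 standard error and filled points where the adjusted p is under 0.05. There are 18 filled red points, 1 filled blue point (DNAJB11) and no filled yellow point.

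Other genes of the secretory pathway, listed by role, were read in the same fit. Of 71 listed genes, 69 were tested (CREB3L3 and ERN2 were too low), and 19 were called higher and 0 lower with NRF2 in the same edgeR test, Benjamini-Hochberg adjusted. This can be read against the same 4.68% and 5.81% of all genes tested. The median log2 fold change of the 69 was 0.18. With NRF1 and with NRF3 none of the 69 was called, with 11 and 3 higher and 0 and 0 lower at an unadjusted p under 0.05, against 1128 and 259 higher of the 15135 genes tested. Against NRF3, 4 of the 69 were called higher with NRF2, beside 2.42% of all genes tested. Against NRF1 0 were, beside 1.04%, with 13 of the 69 and 955 of the 15135 higher at an unadjusted p under 0.05.

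Of 18 genes of translocation into the ER, 5 rose with NRF2. SEC61A1, the channel-forming subunit of the translocon, had a mean of 280.2 ± 6.67 CPM (SD, n = 3 libraries) with empty vector and 411 ± 23.5 CPM (SD, n = 3 libraries) with NRF2, a log2 fold change of 0.55 (SE 0.08, adjusted p = 0.000349). On the same scale SEC62, which serves translocation after translation, rose by 0.35 (SE 0.08, adjusted p = 0.0110) and SSR1, a subunit of the translocon-associated complex, by 0.30 (SE 0.07, adjusted p = 0.0117). Of 17 other folding enzymes, 6 rose, among them the isomerase PDIA5 (0.41, SE 0.09, adjusted p = 0.00818), the HSPA5 nucleotide exchange factor SIL1 (0.42, SE 0.10, adjusted p = 0.0115) and the isomerase TXNDC5 (0.39, SE 0.09, adjusted p = 0.0124). Of 14 other degradation factors, 5 rose, among them SELENOS (0.39, SE 0.10, adjusted p = 0.0182), a partner of the derlins listed in the table under its older symbol, and SEL1L (0.41, SE 0.11, adjusted p = 0.0223), the adaptor of the ligase that HERPUD1 serves.

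Glycan processing gave 2 calls among 13 genes, both of subunits of oligosaccharyltransferase, which attaches glycans to proteins entering the ER. They were STT3A (0.29, SE 0.06, adjusted p = 0.00689) and RPN1 (0.25, SE 0.07, adjusted p = 0.0285). Of 7 other transducers of the unfolded protein response, 1 rose, CREB3L1, a membrane-bound transcription factor related to CREB3L2. CREB3L1 was low, with a mean of 3.80 ± 0.545 CPM (SD, n = 3 libraries) with empty vector and 6.35 ± 1.34 CPM (SD, n = 3 libraries) with NRF2, and had a log2 fold change of 0.74 (SE 0.19, adjusted p = 0.0199), the largest of all members and listed genes. The medians by list were 0.23 for translocation, 0.17 for folding enzymes, 0.21 for degradation factors, 0.11 for glycan processing and 0.17 for transducers.

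**Figure D4:**
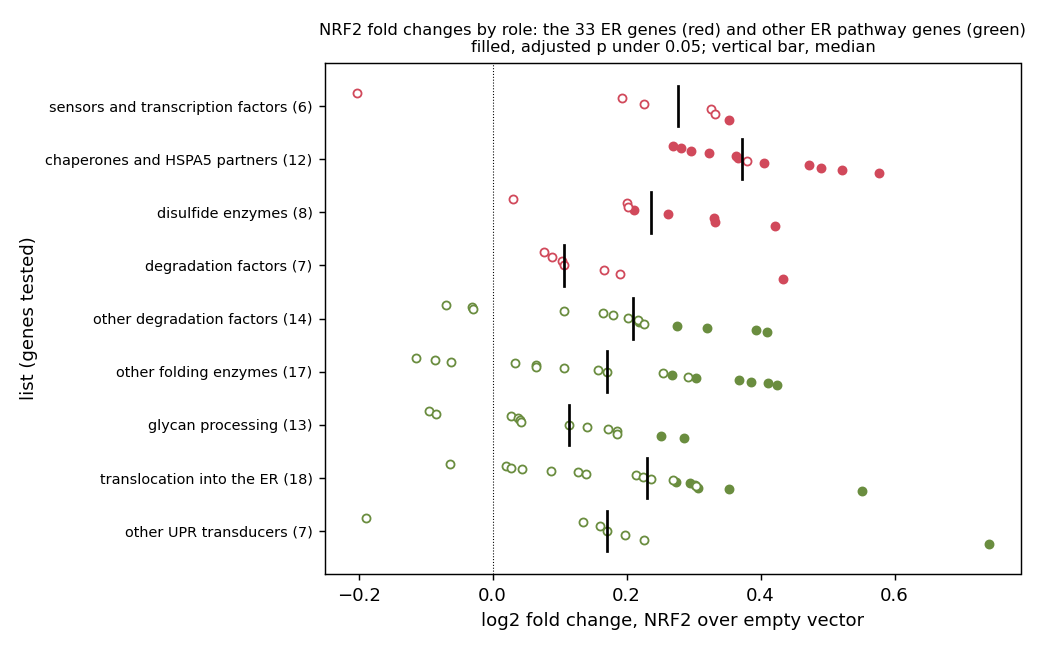
Log2 fold change with NRF2 over empty vector of each tested gene, for the 4 roles of the 33 ER genes (red) and 5 lists of other secretory pathway genes (green). Filled points have an adjusted p under 0.05 and vertical bars are medians. The chaperone row holds 11 filled points of 12 and lies furthest right, with a median of 0.37.

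The elements printed above can be set beside the calls. Of the 11 members with an ER stress element of either form, 10 were called higher with NRF2, and the exception was ERO1B. Of the 19 members with a window and no element, 7 were called higher (DNAJB11, DNAJC10, DNAJC3, ERO1A, MANF, P4HB and PDIA4). The median log2 fold change was 0.35 with an element and 0.23 without. Element and role overlap, since most members with an element are chaperones. Most sensors and degradation factors with a window had none. Every chaperone with an element was called, and of those without, DNAJB11, DNAJC3, DNAJC10 and MANF were called and DNAJB9 was not. Whether calls differ with the element was not tested. DNAJB11 and MANF, with the largest and the third largest log2 fold change, had no match in these windows. Of all tested genes with a window 5.04% were called higher. Outside the members, 21 tested genes had an element of either form, of which 1 (SYNPO) was called higher and 1 lower. Of the 6 members with an antioxidant response core, 5 were called higher, and of the 24 with a window and none, 12 were. Of all tested genes with this core, 142 of 2117 (6.71%) were called higher. Among the 5, CALR, CANX, CRELD2 and SDF2L1 also had an ER stress element. With NRF1, none of the 11 members with an ER stress element was called, and with NRF3 none was. Of all tested genes with a window, 0.246% were called higher with NRF1 and 0.0183% with NRF3.

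**Figure D5:**
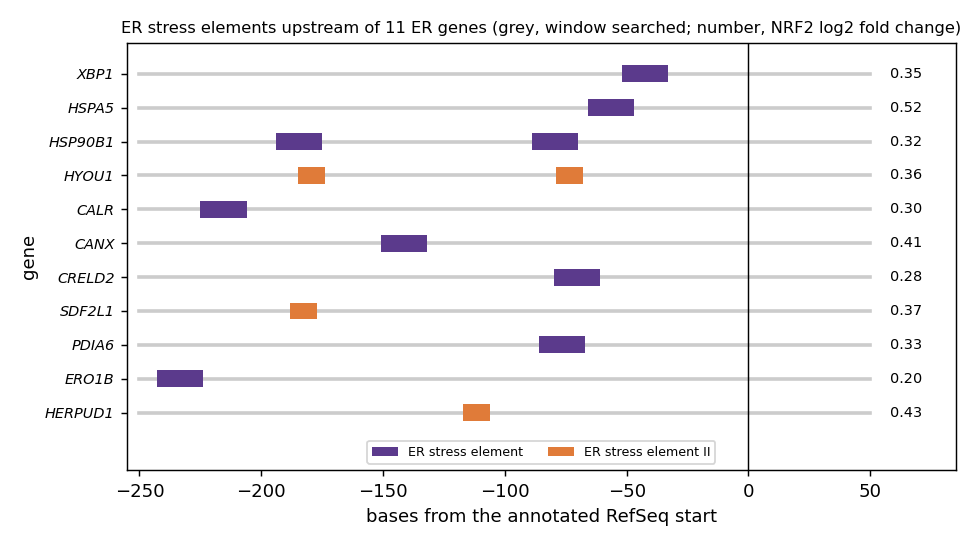
Position of each matched ER stress element (purple) and element II (orange) in the searched window (grey) of 11 ER genes, in bases from the annotated RefSeq start. The number on the right is the log2 fold change with NRF2, from 0.20 for ERO1B to 0.52 for HSPA5.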

How the data were processed

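RNA was sequenced from 12 libraries of HEK293T cells, 3 in each of 4 groups. The authors deposited 1 table of estimated counts per gene symbol, made with DNASTAR Lasergene against GRCh37.p13. The deposited counts were not normalised, hold 0.009 where a gene had no count (45.8% of values), and are not whole for 5.96% of values of at least 0.5 (tolerance 1e-06), as when a read is shared between genes. The library totals were 13452683 to 14014476. How strand was treated is not given in the sources used here. A supplementary heading of the study calls similar values RPKM. The deposited values were read as counts because most are whole numbers, and if they were RPKM the count test and its precision would not apply. Columns headed as vehicle were taken as empty vector. Of the genes listed, 26 carry a number in place of a symbol.

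Counts were rounded to whole numbers and genes filtered by expression (minimum count 10), which left 15135 of 38019 genes. Differences were tested, two-sided, with edgeR 4.0.16 (R 4.3.3), by the quasi-likelihood test with robust dispersion and TMM scaling, in 1 fit of all 12 libraries. P-values were adjusted by the Benjamini-Hochberg method over all genes tested, and a gene was called at an adjusted p under 0.05. CPM are counts scaled to a common library size and are not per length, so levels are not compared between genes. Log2 CPM used a prior count of 2. The study's text names an unequal variance test, in its methods, and a DESeq-based analysis, with its results. Both kinds were run as alternatives, with DESeq2 1.42.0, voom in limma 3.58.1, other scalings and filters, fits of fewer groups, a replicate block and each library left out in turn. The fit without NRF3 libraries was chosen after seeing the data.

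The members and gene lists were chosen with earlier results of these data known. Values of every library are given for up to 4 members of each role with the smallest adjusted p with NRF2 and for members called in another comparison, and up to 3 called genes are named for each other list. One gene that this rule names is not reported here. No 2 replicates agreed within sampling noise (chi-square per degree of freedom 2.17 to 30.1 over 12 pairs). The scripts were tested on simulated data. Promoter windows are those of RefSeq, on GRCh38.p14, matched by symbol. The counts table gives no coordinates, and none were converted.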

Additional observations from a re-analysis of the deposited data

How the results depend on the processing

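There were 44 fold changes of members, followed over 24 settings as far as each applied. They were those of every member with NRF2 against empty vector and, in the other comparisons, only those called in the main fit. A called value was unlikely to reverse in fits of nearly the same libraries. Uncalled values of the other comparisons, such as HERPUD1 with NRF1 at 0.00, were not followed. The settings were 12 alternatives and 12 libraries left out in turn. They gave 1051 values, of which 0 reversed direction. The outcome, called or not called, was the same as in the main fit for 899 values. A call was lost in 134 and gained in 18. The 899 include fold changes that were not called in the main fit and stayed uncalled. With NRF2 against empty vector, 18 members were called higher, 15 with the replicate block (without CRELD2, P4HB and ERO1A), 19 with DESeq2, 18 with voom, 16 with no filter on low counts, 22 with the other 2 groups left out, 22 with 9 libraries and 1 (P4HB) by the unequal variance test, and the count ran from 12 to 20 when single libraries were left out. All genes called higher were 709, with 494 for the replicate block, 675 for DESeq2, 697 for voom and 694 with no filter. They were 1276 with the other 2 groups left out, 1291 with 9 libraries and 50 by the unequal variance test. The count of members called lower was 1 (ATF6B) when the other 2 groups were left out and when NRF3 alone was, which left 9 libraries, and 0 to 1 when single libraries were left out. All genes called lower went from 879 to 1443 with the other 2 groups left out, to 1480 with 9 libraries and to 1150 without NRF3 replicate 3. With NRF1 against empty vector the count of members called was 1, against 4 with DESeq2, 9 with the other groups left out, 6 with 9 libraries, and 0 by the unequal variance test, with upper quartile scaling and with the replicate block (0 to 2 with single libraries left out). All genes called higher went from 36 to 122 with DESeq2, 946 with the other groups left out and 479 with 9 libraries. They were 3 by the unequal variance test, 28 with upper quartile scaling and 11 with the replicate block. With NRF3 the count of members called was 0 in every setting run. For NRF2 against NRF1 the count of 5 became 0 by the unequal variance test, 3 with the replicate block and 8 with 9 libraries (0 to 7 with single libraries left out). All genes called higher went from 158 to 1 by the unequal variance test, 131 with the replicate block and 329 with 9 libraries. For NRF2 against NRF3 the count of 5 became 8 with DESeq2, 4 with the replicate block, and 0 by the unequal variance test and with the other groups left out (1 to 13 with single libraries left out). All genes called higher went from 366 to 388 with DESeq2 and 254 with the replicate block. They were 8 by the unequal variance test and 141 with the other groups left out. For NRF1 against NRF3 the count of members called was 0, or 1 lower (HERPUD1) without NRF3 replicate 2. The cause of these shifts was not tested. The replicate numbers were not taken to pair the libraries, since same-numbered libraries did not deviate together (18 pairs, r from -0.258 to 0.0840). The counts of genes whose libraries did not overlap stayed within 1.5 times under every scaling. Calls were few in the comparisons with small differences, and with 3 libraries a group ERN1, CREB3L2, EIF2AK3 and ERO1B had the largest standard errors with NRF2.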
